A study of Saccharomyces cerevisiae with 18 samples.

Results

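Acute loss of Spt20 alone was examined in the Spt20-AID strain of S. cerevisiae by sequencing newly synthesized RNA (nsRNA). These 6 libraries, chosen by their strain label from the 18 of the series, are 3 biological replicates treated with the auxin 3-IAA and 3 treated with DMSO. The strain is a haploid of mating type a in the W303 background, with the background's auxotrophic alleles of ADE2, HIS3, LEU2, TRP1 and URA3 and can1-100. It carries the auxin receptor OsTIR1 at leu2 under the GPD1 promoter, with LEU2 as marker, and Spt20 fused at its own locus to 3xHA-IAA7, a degron that OsTIR1 recognizes in the presence of auxin, with HIS3MX6 as marker. Cells grown in YPD at 30 °C received 0.5 mM 3-IAA or its solvent alone for 30 min, and RNA was labeled with 4-thiouracil for 6 min and purified. The DMSO controls hold the same degron tag and receptor. A strain without a degron was not analysed here, which means that effects of the auxin and of Spt20 depletion cannot be told apart. The strain closest to it, Med16/Spt20-AID, is used below as a comparison, again with 3 libraries per treatment. In that strain the Mediator tail subunit Med16 carries a degron as well. The remaining strain of the series, Med16/Taf13-AID, has degrons on Med16 and Taf13 and entered only the shared read filter, scaling and fit.

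SAGA is a coactivator that activators recruit to upstream sequences. It acetylates histones through Gcn5, removes ubiquitin from histone H2B through Ubp8, and hands TATA-binding protein (TBP) to promoters through Spt3 and Spt8, while TFIID delivers TBP in parallel. Spt20 is a core scaffold subunit without which SAGA does not hold together. In yeast, SAGA is known for its role at highly regulated genes with a TATA box and a strong dependence on activators, and it contributes to transcription at most other genes.

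Sense reads on genes numbered 3112233 to 4426449 per Spt20-AID library, antisense reads were 5.95% to 6.63% of the reads on genes, and 37.9% to 44.8% of all reads mapped to several places and were not counted on any gene. The labeled mating type was borne out by its markers. Of the 7 a-specific genes, 6 had reads, and they summed to 7909 to 11509 reads per DMSO library, whereas the 4 alpha-specific genes summed to 88 to 101. SPT20 mRNA itself, whose product is the protein targeted, gave 106, 119 and 135 CPM (reads on a gene per 1e6 reads of the TMM-scaled library) with DMSO and 156, 151 and 151 CPM with 3-IAA in replicates 1, 2 and 3. The degron acts on the protein, so this RNA does not show whether depletion took place. The study followed depletion of the protein in Spt20-AID by western blot after addition of 3-IAA. SPT20 nsRNA was higher with 3-IAA in each pair, with a log2 fold change of 0.35 ± 0.073 (SE). Its adjusted p was 1.47e-04 in edgeR's quasi-likelihood test. Here and below the change is from 3 pairs, whereas its SE and p rest on a spread estimated over all 18 libraries.

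Depletion of Spt20 was followed by many decreases and by more modest increases, measured against the typical gene. Of 5567 genes tested in edgeR with same-numbered libraries as pairs, 1592 were lower with 3-IAA (28.6%) and 1295 were higher (23.3%) at an adjusted p under 0.05. Counts within the gene groups below are read against these shares. The decreases were larger than the increases. Among genes called lower the median log2 fold change was −0.45, and 249 of them fell at least 2-fold and 17 at least 4-fold. Among genes called higher the median was 0.29, 6 rose at least 2-fold and 0 at least 4-fold. The direction was the same in 3 of 3 pairs for 1550 of the lower and 1257 of the higher genes, and the 3 values with 3-IAA did not overlap the 3 with DMSO for 1400 and 1038 of them. TMM scaling sets the bulk of genes near 0 (median log2 fold change 0.017), so the calls are relative to it. With the study's S. pombe spike-in factors the log2 fold changes moved up by a median of 0.37, and by 0.34 to 0.40 for nearly all tested genes. The calls became 433 lower and 2913 higher. The shift was similar for nearly all genes but not over pairs. In pairs 1, 2 and 3 the factors were 1.659, 1.2049 and 2.0809 with DMSO, and 1.3295, 1.4978 and 1.1327 with 3-IAA. Pairs 1 and 3 had similar sense reads (4426449 and 4378460 with DMSO, 3542030 and 3509003 with 3-IAA). The upward shift was therefore larger in pair 3 than in pair 1. Group medians of Spt20-AID below are given on both scales, and those with spike-in scaling lean on pair 3 in this way.

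The 12 largest decreases included genes of the cell wall, transporters and metabolic enzymes, and genes outside these classes. TDH1, one of the 3 genes for glyceraldehyde-3-phosphate dehydrogenase (chrX:338271-339269 in R64), gave 731, 966 and 947 CPM with DMSO and 103, 113 and 132 CPM with 3-IAA. Its values did not overlap, and the log2 fold change of −2.92 ± 0.090 (edgeR adjusted p = 4.58e-23) corresponded to a 7.59-fold decrease. CWP1, which encodes a cell wall mannoprotein, gave 315, 283 and 256 CPM with DMSO and 49.4, 50.6 and 51.4 CPM with 3-IAA, a 5.63-fold decrease. Its neighbor CWP2 on the same strand of chromosome XI, also a mannoprotein gene, went from 709, 730.5 and 568 CPM to 159, 163 and 164 CPM. All of the DMSO libraries of both genes lay above all of the 3-IAA libraries. The riboflavin transporter gene MCH5 changed by −2.38 ± 0.077 on the log2 scale, the dicarboxylic amino acid permease gene DIP5 by −2.12 ± 0.078 and the multidrug transporter gene QDR2 by −2.15 ± 0.13. The list also held the phosphatase gene PHM8 (−2.28), the phenylpyruvate decarboxylase gene ARO10 (−2.13), NFG1, a negative regulator of filamentous growth (−2.36), BSC1 (−2.15), and the little-studied YDR222W (−2.60) and YPL088W (−2.08).

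Most of the largest increases were of genes with few reads. SSA4, the strongly heat-inducible cytosolic Hsp70 gene (chrV:364589-366517), was the exception, with 538, 341 and 506 CPM with DMSO and 1806, 1392 and 994 CPM with 3-IAA. Its groups did not overlap, and the increase was 2.98-fold (log2 fold change 1.58 ± 0.10, edgeR adjusted p = 5.02e-15). EMP46, which encodes a cargo receptor of transport vesicles between endoplasmic reticulum and Golgi, rose from 10.9, 10.6 and 12.03 CPM to 27.4, 22.9 and 21.2 CPM, or 2.13-fold. The next were the cardiolipin phospholipase gene CLD1 (0.91), the zinc finger gene YGR067C (0.91), the aspartic protease gene YPS6 (0.90), and SIP4, an activator of gluconeogenic genes (0.90). ATG38 of the autophagy machinery (0.87), MHF1 of the Fanconi-like DNA repair proteins (0.86), the phosphatase gene PPZ2 (0.84), the zinc cluster gene GSM1 (0.83), the galactose sensor gene GAL3 (0.79) and SPO23 (0.78) completed the list.

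**Figure D1:**
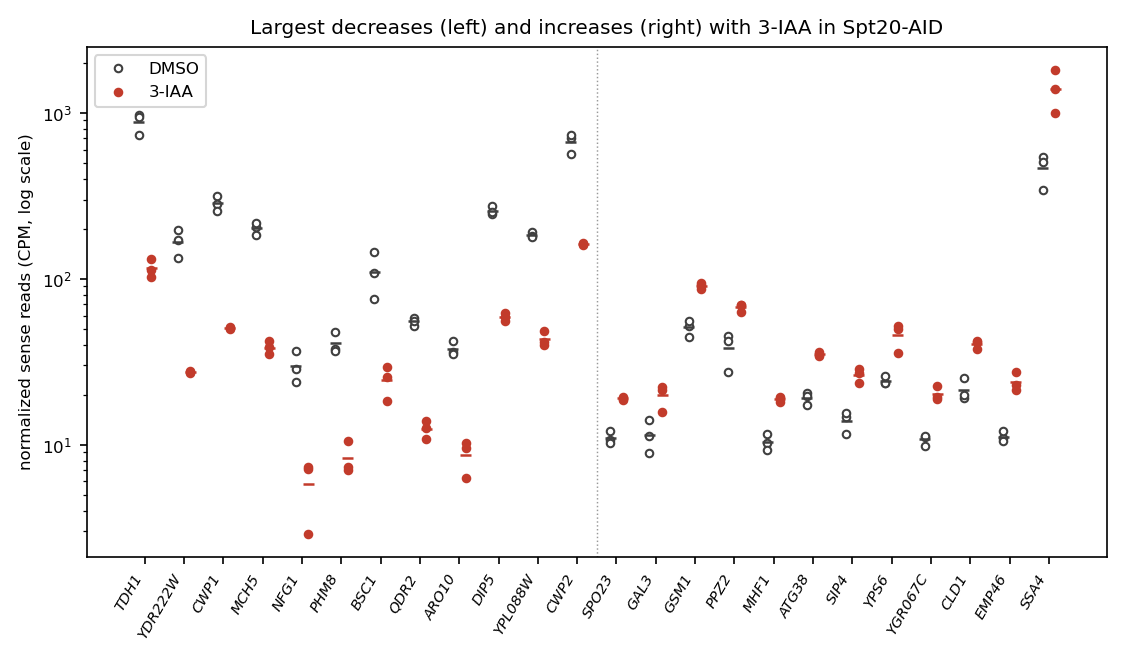
Normalized sense reads (CPM, log scale) in each Spt20-AID library for the 12 genes with the largest decreases and the 12 with the largest increases among called genes with a mean of at least 50 reads and the same direction in 3 of 3 pairs. Open points are DMSO and filled points 3-IAA libraries, with bars at the means; the groups do not overlap for any of the 24 genes, and SSA4, at 462 CPM with DMSO, stands out among the increases by its level.

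To ask what strongly affected genes share, the 250 bases upstream of each start codon in the R64 reference genome were searched on both strands for the TATA box, taken as TATA followed by A or T, then A, then A or T, then A or G. The stretches below are read from that RefSeq sequence 5′ to 3′ on the strand of the gene, with the match in capitals. The first 6 belong to genes that fell and hold a TATA box, and they are shown because this element was more frequent among large decreases.
TDH1: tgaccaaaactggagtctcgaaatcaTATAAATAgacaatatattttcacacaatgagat
ADH1: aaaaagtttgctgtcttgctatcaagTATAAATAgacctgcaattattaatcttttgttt
HSP12: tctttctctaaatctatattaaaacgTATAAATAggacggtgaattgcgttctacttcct
CWP2: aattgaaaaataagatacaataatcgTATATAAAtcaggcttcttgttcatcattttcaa
TAT1: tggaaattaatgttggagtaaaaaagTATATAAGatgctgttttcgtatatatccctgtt
HTB2: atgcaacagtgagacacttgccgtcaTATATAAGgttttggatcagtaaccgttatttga
They lie at chrX:338093-338152 (plus strand) for TDH1, chrXV:160689-160748 (minus) for ADH1, chrVI:107085-107144 (plus) for HSP12, chrXI:259094-259153 (plus) for CWP2, chrII:378582-378641 (minus) for TAT1 and chrII:236263-236322 (plus) for HTB2. The match ends 120 bases before the start codon in ADH1, the shortest distance of the 6, and 195 bases before it in HTB2, the longest.

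Genes that fell the most held a TATA box more often than other genes. It was present in 68.02% of genes called lower by at least 2-fold (168 of 247), in 39.3% of those called lower by less and in 36.1% of all tested genes with an annotation (1977 of 5479). The share was 30.6% among genes called higher and 34.1% among genes not called. Over steps of the fold change it went from 76.8% of genes with a log2 fold change under −1.5 through 64.6% and 52.7% to 34.4% of those between −0.5 and −0.25. It was lowest, at 30.6%, between 0 and 0.25 and was 40.6% of the 155 genes above 0.5, while genes called higher by at least 1.5-fold held it in 37.5% (27 of 72). A match is a string of letters in this window and not a measured TBP site. Presence of the box alone went with a small difference, since the median log2 fold change was −0.029 over genes with it and 0.037 over genes without it.

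**Figure D2:**
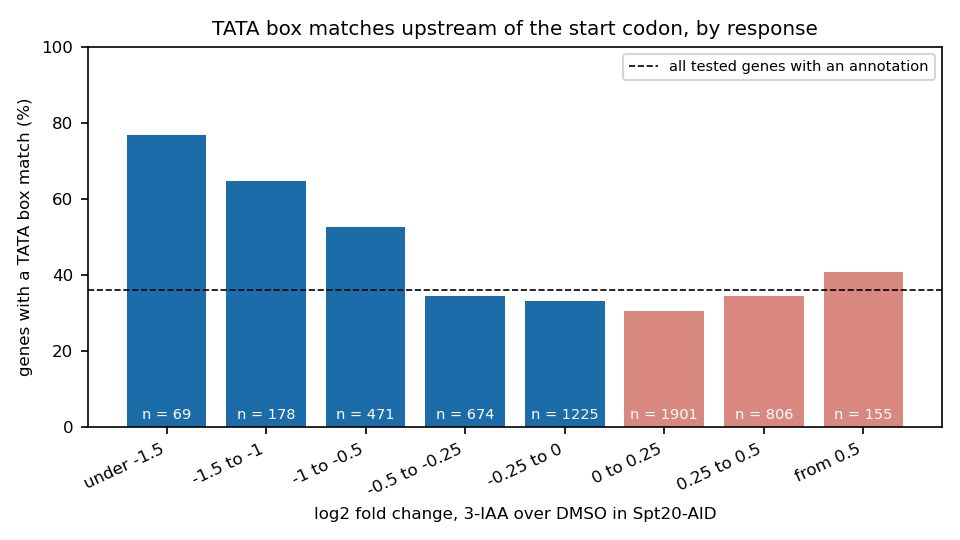
Percent of genes with a TATA box match in the 250 bases before the start codon, by log2 fold change with 3-IAA in Spt20-AID. Bars carry the number of genes; the share is 76.8% in the bin of largest decreases and 30.6% between 0 and 0.25, and the dashed line marks 36.1%, the share over all tested genes with an annotation.

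The enzymes of glycolysis and ethanol fermentation, among the most highly expressed genes of yeast in glucose, fell with Spt20 depletion. Of the glycolytic genes, 16 of 17 tested genes were called lower and 0 higher, with a group median of −0.85 (−0.50 with spike-in scaling), against 0.017 and 0.39 for all tested genes. A TATA box was found in 13 of the 17. ENO1, which encodes enolase, gave 2512, 2251 and 2291 CPM with DMSO and 799, 739.5 and 830.1 CPM with 3-IAA, and the triose phosphate isomerase gene TPI1 gave 2279, 1845 and 1829 and 816, 771 and 878 CPM. Neither gene had overlapping groups, and their log2 fold changes were −1.57 ± 0.073 and −1.27 ± 0.068. The isoforms of glyceraldehyde-3-phosphate dehydrogenase responded in different degree. TDH2 changed by −1.30 ± 0.080, less than TDH1, and TDH3, the most abundant at 8423, 7787 and 7077 CPM with DMSO, gave 6653, 6563 and 6788 CPM with 3-IAA and a log2 fold change of −0.22 ± 0.079 that turned to 0.15 with spike-in scaling. These genes are near copies, and only reads that map to one place were counted.

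Fermentation genes showed the same split between isoforms. In the list of pyruvate decarboxylases and alcohol and aldehyde dehydrogenases, 8 of 12 tested genes were called lower and 1 higher (median −0.59, −0.24 with spike-in scaling). ADH1, the main alcohol dehydrogenase of fermenting cells, gave 3753, 4038 and 3449 CPM with DMSO and 1115, 1181 and 1213 CPM with 3-IAA. That is a 3.20-fold decrease without overlap of the groups (log2 fold change −1.68 ± 0.072, edgeR adjusted p = 1.16e-19). PDC1, the main pyruvate decarboxylase gene, changed by −0.74 ± 0.073 and the mitochondrial dehydrogenase gene ADH3 by −0.90 ± 0.066, whereas PDC5, a minor decarboxylase gene, did not pass the test at −0.066 ± 0.15. ALD2, an aldehyde dehydrogenase gene of stressed cells, rose (0.51 ± 0.17). Of genes for hexose transport and sensing, 5 of 13 tested genes were called lower and 1 higher, with a group median of −0.17 (0.20 with spike-in scaling). That median was unstable, at −0.31, −0.35 and −0.042 in pairs 1, 2 and 3. It was −0.024, −0.019 and −0.37 with pair 1, 2 or 3 left out. The low-affinity glucose transporter gene HXT3 gave 5266, 4323 and 4775 CPM with DMSO and 2838, 2587 and 3082 CPM with 3-IAA, HXT4 changed by −1.06 ± 0.080, and the glucose sensor gene SNF3 rose by 0.42 ± 0.074.

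Genes for the cytosolic ribosome fell by a modest amount that was very uniform over genes but less so over pairs. All but one gene in each subunit were called lower, with 55 of 56 tested genes lower and 0 higher for the small and 80 of 81 tested genes lower and 0 higher for the large subunit. The interquartile range of the log2 fold change ran from −0.44 to −0.36 for the small subunit and from −0.50 to −0.39 for the large subunit. Over pairs 1, 2 and 3 the median was −0.54, −0.45 and −0.23 for the small subunit. For the large subunit it was −0.55, −0.47 and −0.30. The medians of −0.41 and −0.44 were below the typical gene but moved to −0.043 and −0.073 with spike-in scaling, where 0 and 3 genes were called lower. RPL3, of the large subunit, gave 2891, 2664 and 2426 CPM with DMSO and 1541, 1510.4 and 1556 CPM with 3-IAA (log2 fold change −0.79 ± 0.068), and RPS21B, of the small subunit, gave 224, 226 and 183 and 139.9, 151 and 129 CPM (−0.59 ± 0.062). RPL4A at −0.85 ± 0.066 had the largest decrease of either subunit. A TATA box was found in 10 of 56 small and 15 of 81 large subunit genes, below the 36.1% of all genes. Many of these proteins have a pair of near-identical genes, for which the counts hold only reads from the parts that differ. In contrast, 3 of 65 genes for mitochondrial ribosomal proteins were lower and 5 higher, with a median of 0.032 (0.40 with spike-in scaling).

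The machinery that builds and serves ribosomes moved in the same direction by less, and turned positive with spike-in scaling. Of 120 ribosome biogenesis genes, 92 were lower and 0 higher, with a median of −0.26 that turned to 0.11 with spike-in scaling. NSR1, a nucleolar protein gene, lay apart from the others, with 894, 791 and 794 CPM with DMSO and 340.3, 361 and 336 CPM with 3-IAA (−1.26 ± 0.059). CBF5, the pseudouridine synthase of box H/ACA particles, changed by −0.58 ± 0.059 and the helicase gene DBP3 by −0.56 ± 0.061. For subunits of RNA polymerases I and III, 11 of 19 tested genes were called lower and 0 higher, for translation factors 28 of 31 tested genes lower and 0 higher, and for cytosolic aminoacyl-tRNA synthetases 12 of 18 tested genes lower and 0 higher. Their medians were −0.22, −0.28 and −0.17, and turned to 0.15, 0.089 and 0.19 with spike-in scaling. YEF3, the fungal elongation factor 3 gene, was the translation factor gene with the largest decrease, from 6804, 6536 and 6492 CPM to 3289, 3305 and 3458 CPM (−0.98 ± 0.070). RPA190, the largest subunit gene of RNA polymerase I, changed by −0.43 ± 0.058.

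**Figure D3:**
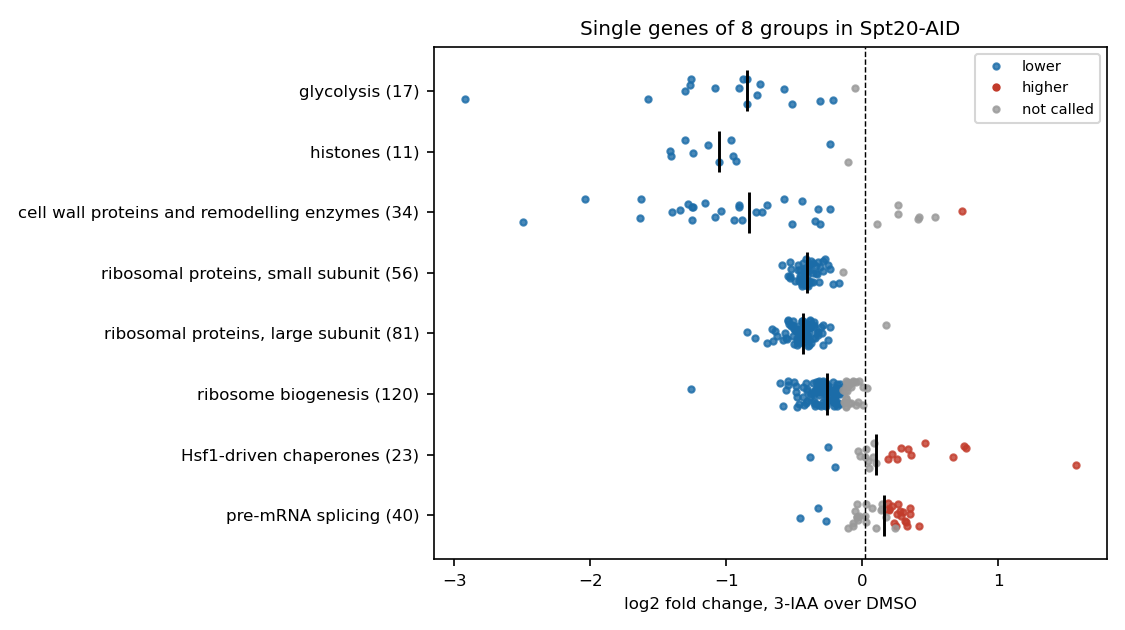
Log2 fold change with 3-IAA in Spt20-AID, relative to the typical gene, for single genes of 8 groups; points are genes colored by call, black bars are group medians and the dashed line is the median of all tested genes. Ribosomal protein genes form a tight cluster around medians of −0.41 and −0.44, whereas glycolytic genes spread from −2.92 to −0.051; with spike-in scaling all points move up by about 0.37.

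Histone genes, which are transcribed in S phase, had the lowest median of the groups examined in the fit of all pairs, whereas in pair 3 alone the general stress genes described below were lower (−1.25 against −0.88 for histones) and without pair 2 the values were −1.002 and −0.996. The call was lower for 10 of 11 and higher for 0, with a group median of −1.05 (−0.68 with spike-in scaling). HTA2 and HTB2, the divergent pair for H2A and H2B on chromosome II, gave 285, 269 and 204 and 383, 404 and 298 CPM with DMSO, and 98.6, 101 and 83.8 and 129.9, 136 and 140.4 CPM with 3-IAA. Both fell without overlap of the groups (−1.41 ± 0.089 and −1.41 ± 0.069). The other pair, HTA1 and HTB1, changed by −1.13 ± 0.067 and −0.93 ± 0.076, the H4 genes HHF1 and HHF2 by −1.24 ± 0.066 and −1.30 ± 0.067, the H3 genes HHT1 and HHT2 by −1.05 ± 0.069 and −0.96 ± 0.062, and the linker histone gene HHO1 by −0.95 ± 0.14. The variant genes moved less, with −0.24 ± 0.082 for HTZ1, which encodes H2A.Z, and −0.11 ± 0.088 for CSE4, the centromeric H3 gene, which did not pass the test. HTZ1 turned to 0.13 with spike-in scaling.

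Other periodic genes fell as well. For cyclins and cell cycle regulators, 15 of 20 tested genes were called lower and 0 higher, with a group median of −0.54 (−0.17 with spike-in scaling). CLN2, the G1 cyclin gene, gave 130.5, 171 and 138 CPM with DMSO and 48.4, 59.01 and 53.9 CPM with 3-IAA (−1.44 ± 0.086), PCL1, a cyclin gene of the kinase Pho85, changed by −1.65 ± 0.092, and the mitotic cyclin gene CLB1 by −1.62 ± 0.078. Both G1 and mitotic cyclins were thus among the genes that fell. The 11 genes of daughter-specific cell separation were all lower (median −0.64, −0.28 with spike-in scaling), among them the chitinase gene CTS1, which gave 678, 858 and 817 CPM with DMSO and 352, 379 and 472 CPM with 3-IAA (−0.97 ± 0.068). In these bulk samples, fewer cells in a cell cycle stage and less RNA per cell cannot be told apart. The replication machinery did not follow, with 9 of 36 tested genes lower (25%) and 7 higher (19.4%), near the 28.6% and 23.3% of all genes. The median log2 change of this list was −0.020 (0.34 with spike-in scaling). Within it the ribonucleotide reductase genes RNR1, RNR2 and RNR4 changed by −1.70 ± 0.068, −1.03 ± 0.067 and −1.14 ± 0.067 and the sliding clamp gene POL30 by −1.09 ± 0.084, whereas the helicase subunit gene MCM4 rose by 0.32 ± 0.059 and RNR3, a DNA damage-inducible gene with 5.21, 6.34 and 6.77 CPM with DMSO, was not called (0.27 ± 0.25).

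Genes of the cell surface and of mating fell widely. For cell wall proteins and remodelling enzymes, 27 of 34 tested genes were called lower and 1 higher, with a group median of −0.83 (−0.47 with spike-in scaling), and 23 of the 34 held a TATA box. Besides CWP1 and CWP2, the wall protein gene CIS3 fell from 363, 381 and 302 CPM to 103, 115 and 119 CPM (−1.63 ± 0.070). Its groups did not overlap. FLO1, a flocculin gene with 3.72, 2.11 and 4.01 CPM with DMSO, was the one member called higher (0.73 ± 0.30, edgeR adjusted p = 0.039), at very few reads. In the list of mating and pheromone response, 20 of 30 tested genes were called lower and 3 higher, with a group median of −0.48 (−0.11 with spike-in scaling). MFA1, which encodes the pheromone a-factor, gave 134, 119.8 and 114 CPM with DMSO and 36.8, 35.3 and 35.6 CPM with 3-IAA (−1.77 ± 0.091), and STE2, the receptor of alpha-factor, gave 1323, 1294 and 1271 and 784, 798 and 855 CPM (−0.67 ± 0.061). Neither overlapped. The kinase gene KSS1 changed by −1.24 ± 0.068 and FAR1, which arrests the cycle in response to pheromone, by −1.18 ± 0.061. The upstream kinase genes STE11 and STE7 rose, by 0.45 ± 0.078 and 0.29 ± 0.068.

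Amino acid permease genes fell widely. Of them, 17 of 20 tested genes were called lower and 0 higher, with a group median of −0.67 (−0.29 with spike-in scaling), and 14 of 20 held a TATA box. TAT1, a permease for tyrosine and valine, gave 576, 564 and 589.9 CPM with DMSO and 156, 162 and 181 CPM with 3-IAA (−1.79 ± 0.062, edgeR adjusted p = 6.13e-22), and the general permease gene GAP1 gave 194, 246 and 168 and 67.1, 53.7 and 53.9 CPM (−1.78 ± 0.088). Both were without overlap. AGP1, a broad amino acid permease gene, changed by −1.44 ± 0.068. In nitrogen catabolism, 11 of 21 tested genes were called lower and 1 higher, and the median was −0.28 and turned to 0.082 with spike-in scaling. The ammonium permease gene MEP1 (−1.56 ± 0.082) and GAT1, an activator of these genes (−1.45 ± 0.11), fell, while GLN3, the other main activator, rose (0.54 ± 0.079).

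The iron regulon, the genes for iron uptake that Aft1 and Aft2 drive, had 15 of 21 tested genes lower and 1 higher, with a group median of −0.41 (−0.038 with spike-in scaling). FTR1, the high-affinity iron permease gene, gave 416, 321 and 298 CPM with DMSO and 117, 105 and 111 CPM with 3-IAA (−1.63 ± 0.072), FRE1, a metalloreductase gene, changed by −1.36 ± 0.069 and the siderophore transporter gene ARN1 by −1.26 ± 0.068. The phosphate regulon had 4 of 15 tested genes lower (26.7%) and 2 higher (13.3%), beside 28.6% and 23.3% of all genes. The median log2 change of the regulon was 0.00097 (0.36 with spike-in scaling). Its phosphate transporter genes went in opposite directions. PHO84, the high-affinity transporter gene, gave 11.4, 13.03 and 13.8 CPM with DMSO and 4.47, 3.16 and 2.99 CPM with 3-IAA (−1.83 ± 0.25, edgeR adjusted p = 2.16e-07), and PHO89, the sodium-coupled one, gave 9.67, 9.51 and 5.51 and 17.6, 15.8 and 14.4 CPM (0.97 ± 0.19, edgeR adjusted p = 8.96e-05). Both had few reads in this phosphate-rich medium, and PHO5, the acid phosphatase gene often studied as a SAGA target, was not called at 12.9, 16.6 and 11.3 CPM with DMSO and 13.2, 14.5 and 12.8 CPM with 3-IAA.

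Sterol synthesis fell along most of the pathway. Of 24 ergosterol genes, 22 were lower and 2 higher, with a group median of −0.53 (−0.16 with spike-in scaling). ERG3, the C-5 sterol desaturase gene, gave 508, 442 and 397 CPM with DMSO and 107, 134 and 130.3 CPM with 3-IAA (−1.86 ± 0.076), and ERG5, ERG6 and ERG28, which act in the late part of the pathway, changed by −1.63 ± 0.068, −1.57 ± 0.074 and −1.88 ± 0.13. The exceptions were the early genes HMG2, an HMG-CoA reductase gene (0.32 ± 0.068), and ERG12, the mevalonate kinase gene (0.15 ± 0.063). In phospholipid and fatty acid synthesis, 13 of 22 tested genes were called lower and 1 higher, and the median was −0.30 and turned to 0.067 with spike-in scaling. OLE1, the fatty acid desaturase gene, gave 1957, 2299 and 2104 CPM with DMSO and 590.0, 814 and 900.3 CPM with 3-IAA (−1.48 ± 0.071), and the fatty acid synthase genes FAS1 and FAS2 changed by −1.25 ± 0.063 and −0.98 ± 0.066. INO1, the inositol synthesis gene, was at 11.2, 8.81 and 7.77 CPM with DMSO and did not pass the test (−0.40 ± 0.24).

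Synthesis of methionine and assimilation of sulfur had 17 of 26 tested genes lower and 4 higher, with a group median of −0.39 (−0.016 with spike-in scaling). MET3, the ATP sulfurylase gene, gave 345, 292 and 387 CPM with DMSO and 133, 144 and 154 CPM with 3-IAA (−1.25 ± 0.073), and SAM1, an S-adenosylmethionine synthetase gene, changed by −1.26 ± 0.069. MET13, a methylenetetrahydrofolate reductase gene, rose by 0.43 ± 0.078. The pair medians of this list spread from −0.15 to −0.55. Amino acid biosynthesis as a whole had 33 of 66 tested genes lower and 14 higher and a median of −0.14 that turned to 0.22 with spike-in scaling, where 7 were lower and 26 higher. GLN1, the glutamine synthetase gene, gave 999, 1019 and 938 CPM with DMSO and 341, 399 and 451 CPM with 3-IAA (−1.32 ± 0.069), BAT2, the cytosolic branched-chain aminotransferase gene, changed by −1.29 ± 0.069 and ILV5, of isoleucine and valine synthesis, by −0.99 ± 0.075. Of the Gcn4 targets often used to study SAGA, HIS4 fell (−0.49 ± 0.063) and ARG1 rose (0.26 ± 0.067), and the arginine genes ARG2 and ARG7 rose by 0.55 ± 0.076 and 0.51 ± 0.071. Purine and one-carbon genes had 8 of 21 tested genes lower and 0 higher, and their median was −0.094 (0.26 with spike-in scaling).

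The lists of chaperone and of general stress genes differed in direction. Chaperone genes driven by the heat shock factor Hsf1 included SSA4 and were higher more often than lower, with 3 of 23 tested genes lower and 11 higher. Their median was 0.10 (0.47 with spike-in scaling), and over pairs 1, 2 and 3 it was 0.31, 0.30 and 0.0052, so that pair 3 lay near the typical gene. BTN2, which sequesters misfolded proteins, gave 2591, 2041 and 2961 CPM with DMSO and 4782, 4089 and 3929 CPM with 3-IAA (0.76 ± 0.078), and HSP42, a small heat shock protein gene, gave 494, 409.6 and 613 and 947, 836 and 745 CPM (0.75 ± 0.085). In both genes the groups did not overlap. The disaggregase gene HSP104 rose by 0.46 ± 0.083, the mitochondrial disaggregase gene HSP78 by 0.36 ± 0.065, and the Hsp70 genes SSA3 and SSA1 by 0.67 ± 0.10 and 0.34 ± 0.070, whereas the abundant SSA2 (0.018 ± 0.070) and HSP82, which encodes Hsp90 (0.043 ± 0.074), were not called. The co-chaperone gene STI1 fell (−0.39 ± 0.065).

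A heat shock element, here GAANNTTCNNGAA or TTCNNGAANNTTC, was found in the 250 bases upstream of 8 of the 23 Hsf1 genes and in 0.730% of all tested genes with an annotation. The list was written as targets of Hsf1, so the first share is no result of these libraries. Over all genes the element was rare, in 1.08% of those called higher (14 of 1291) and 0.63% of those called lower (10 of 1577). Of genes called higher by at least 1.5-fold, 2 of 72 held it. Stretches of the chaperone genes HSP42 and HSP78, which rose, at chrIV:806371-806421 (plus strand) and chrIV:974447-974493 (minus strand), are shown with the element in capitals as examples.
HSP42: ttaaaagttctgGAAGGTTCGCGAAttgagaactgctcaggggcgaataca
HSP78: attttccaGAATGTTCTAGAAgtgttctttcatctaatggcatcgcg
Both genes also have a TATA box in the window, so the box was not restricted to genes that fell.

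Genes of the general stress response, which the activators Msn2 and Msn4 drive, behaved differently from the chaperones. Of 17, 13 were lower and 0 higher, with a group median of −0.91 (−0.55 with spike-in scaling), and 15 of them held a TATA box. The stress element AGGGG, searched in the same window, was found in 13 of the 17. It was also in 9 of 18 trehalose and glycogen genes, of which 6 were lower and 6 higher. Genes called lower by at least 2-fold held it in 21.5%, and genes called higher by at least 1.5-fold in 31.9%. The share was 19.0% of all tested genes with an annotation, so the element did not mark genes that fell. HSP12, which encodes a membrane-associated small stress protein, gave 43.9, 49.3 and 45.1 CPM with DMSO and 10.8, 12.9 and 13.1 CPM with 3-IAA (−1.91 ± 0.15), and YGP1, a secreted glycoprotein gene, gave 461, 456 and 497 and 136, 147 and 159 CPM (−1.68 ± 0.059). The groups were apart in both. HSP31, a methylglyoxalase gene, changed by −1.67 ± 0.061. CTT1, the cytosolic catalase gene, was not called (0.51 ± 0.23, edgeR adjusted p = 0.0576), with 11.7, 5.64 and 9.27 CPM with DMSO and 12.4, 16.9 and 10.3 CPM with 3-IAA. Thioredoxin, peroxiredoxin and glutathione genes had 15 of 19 tested genes lower and 1 higher, with a group median of −0.66 (−0.30 with spike-in scaling). GSH1, the first enzyme of glutathione synthesis, gave 1464, 1521 and 1624 CPM with DMSO and 659, 654 and 630.1 CPM with 3-IAA (−1.25 ± 0.062), the glutathione transferase gene GTT2 changed by −1.55 ± 0.059 and the thioredoxin reductase gene TRR1 by −1.06 ± 0.063.

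In pleiotropic drug resistance, 8 of 13 tested genes were called lower and 3 higher, with a group median of −0.57 (−0.20 with spike-in scaling). The transporter gene YOR1 and the lipid transfer protein gene PDR16 changed by −1.05 ± 0.060 and −1.19 ± 0.062, while the activator genes PDR1 and PDR3 themselves rose by 0.16 ± 0.060 and 0.20 ± 0.070, and stood at −0.013 and −0.011 with length and GC trends removed. Genes of protein folding in the endoplasmic reticulum stayed near the typical gene, with 2 of 15 tested genes lower and 4 higher and a median log2 change of 0.043 (0.41 with spike-in scaling). PDI1, the disulfide isomerase gene, fell (−0.55 ± 0.063) and the Hsp70 gene KAR2 rose (0.19 ± 0.070). Proteasome genes had 9 of 34 tested genes lower (26.5%, near the 28.6% of all genes) and 1 higher (2.94%, against 23.3%). Their median was −0.078 (0.29 with spike-in scaling), and the one called higher was their activator gene RPN4 (0.18 ± 0.069). Trehalose and glycogen metabolism had 6 of 18 tested genes lower and 6 higher, not far from the 28.6% and 23.3% of all genes, and a median of 0.0043. With spike-in scaling 0 were lower and 11 higher and the median was 0.37. There TPS3, a trehalose synthase subunit gene, rose (0.50 ± 0.064) and GPH1, the glycogen phosphorylase gene, fell (−0.82 ± 0.17).

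Mitochondrial energy genes had small medians, and their counts are read against 28.6% lower and 23.3% higher of all tested genes. The tricarboxylic acid cycle had 9 of 21 tested genes lower and 3 higher, and its median was −0.090 and turned to 0.27 with spike-in scaling, where 2 were lower and 8 higher. IDH1, a subunit of isocitrate dehydrogenase, gave 346, 339.9 and 340.3 CPM with DMSO and 133, 141 and 132 CPM with 3-IAA (−1.34 ± 0.060), IDH2, its other subunit, changed by −0.71 ± 0.060 and the aconitase gene ACO1 by −0.62 ± 0.061. KGD1, of the ketoglutarate dehydrogenase complex, rose by 0.31 ± 0.059. For the respiratory chain and ATP synthase, 13 of 39 tested genes were called lower and 7 higher, and the median was −0.10 (0.30 with spike-in scaling, where 3 were lower and 13 higher). QCR6 of complex III and the cytochrome c gene CYC1 changed by −1.02 ± 0.064 and −0.71 ± 0.067, while SDH1 and SDH2, both of succinate dehydrogenase, rose by 0.33 ± 0.073 and 0.41 ± 0.058.

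Genes of the transcription machinery were seldom lower. Among SAGA subunits, 0 of 19 tested genes were called lower and 7 higher, with a group median of 0.15 (0.52 with spike-in scaling). SPT7, the largest SAGA-specific core subunit gene, gave 224, 243 and 255 CPM with DMSO and 278, 272 and 291 CPM with 3-IAA (0.22 ± 0.065), and the deubiquitinase gene UBP8 gave 119, 122 and 146 and 154, 154 and 161 CPM (0.27 ± 0.066). The other called members gave 0.29 ± 0.069 for NGG1, 0.24 ± 0.071 for SGF73, 0.21 ± 0.079 for SPT8 and 0.19 ± 0.070 for the acetyltransferase gene GCN5, while SPT3 (0.15 ± 0.074), HFI1 (0.16 ± 0.071), ADA2 (0.049 ± 0.079) and TRA1 (0.12 ± 0.058), which encodes the activator-binding subunit, did not pass the test. TFIID-specific subunits and TBP had 1 of 10 tested genes lower and 4 higher and Mediator 1 of 25 tested genes lower and 9 higher, with medians of 0.13 and 0.092 (0.50 and 0.47 with spike-in scaling). The one member of the TFIID list called lower was SPT15, the TBP gene, which gave 465, 441 and 407 CPM with DMSO and 294, 282 and 326 CPM with 3-IAA (−0.54 ± 0.062). TAF2, a TFIID subunit gene, rose by 0.33 ± 0.058 and NUT1, a Mediator subunit gene, by 0.40 ± 0.059. RNA polymerase II and its general factors had 4 of 29 tested genes lower (13.8%) and 8 higher (27.6%), beside 28.6% and 23.3% of all genes. Their median was 0.065 (0.43 with spike-in scaling).

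Other housekeeping machinery lay slightly above the typical gene, although with length and GC trends removed the medians of the nuclear pore and SEC genes were −0.0028 and −0.0047. Of pre-mRNA splicing genes, 3 of 40 tested genes were called lower and 18 higher (median 0.16), of nuclear pore genes 0 of 28 tested genes lower and 9 higher (median 0.11), and of secretory SEC genes 2 of 36 tested genes lower and 10 higher (median 0.084), with medians of 0.53, 0.48 and 0.45 after spike-in scaling. The splicing share of 45% higher stood beside 23.3% of all genes. PRP46, a spliceosome gene, rose by 0.42 ± 0.081 and SEC16, which organizes sites of exit from the endoplasmic reticulum, by 0.43 ± 0.063. As single genes of reference, ACT1, the actin gene, gave 1707, 1501 and 1458 CPM with DMSO and 1344, 1259.8 and 1277 CPM with 3-IAA (−0.26 ± 0.062) and PMA1, the plasma membrane proton pump gene, gave 9045, 8855 and 8546 and 6812, 6982 and 7568 CPM (−0.31 ± 0.075). Both turned positive with spike-in scaling, at 0.10 and 0.056.

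**Figure D4:**
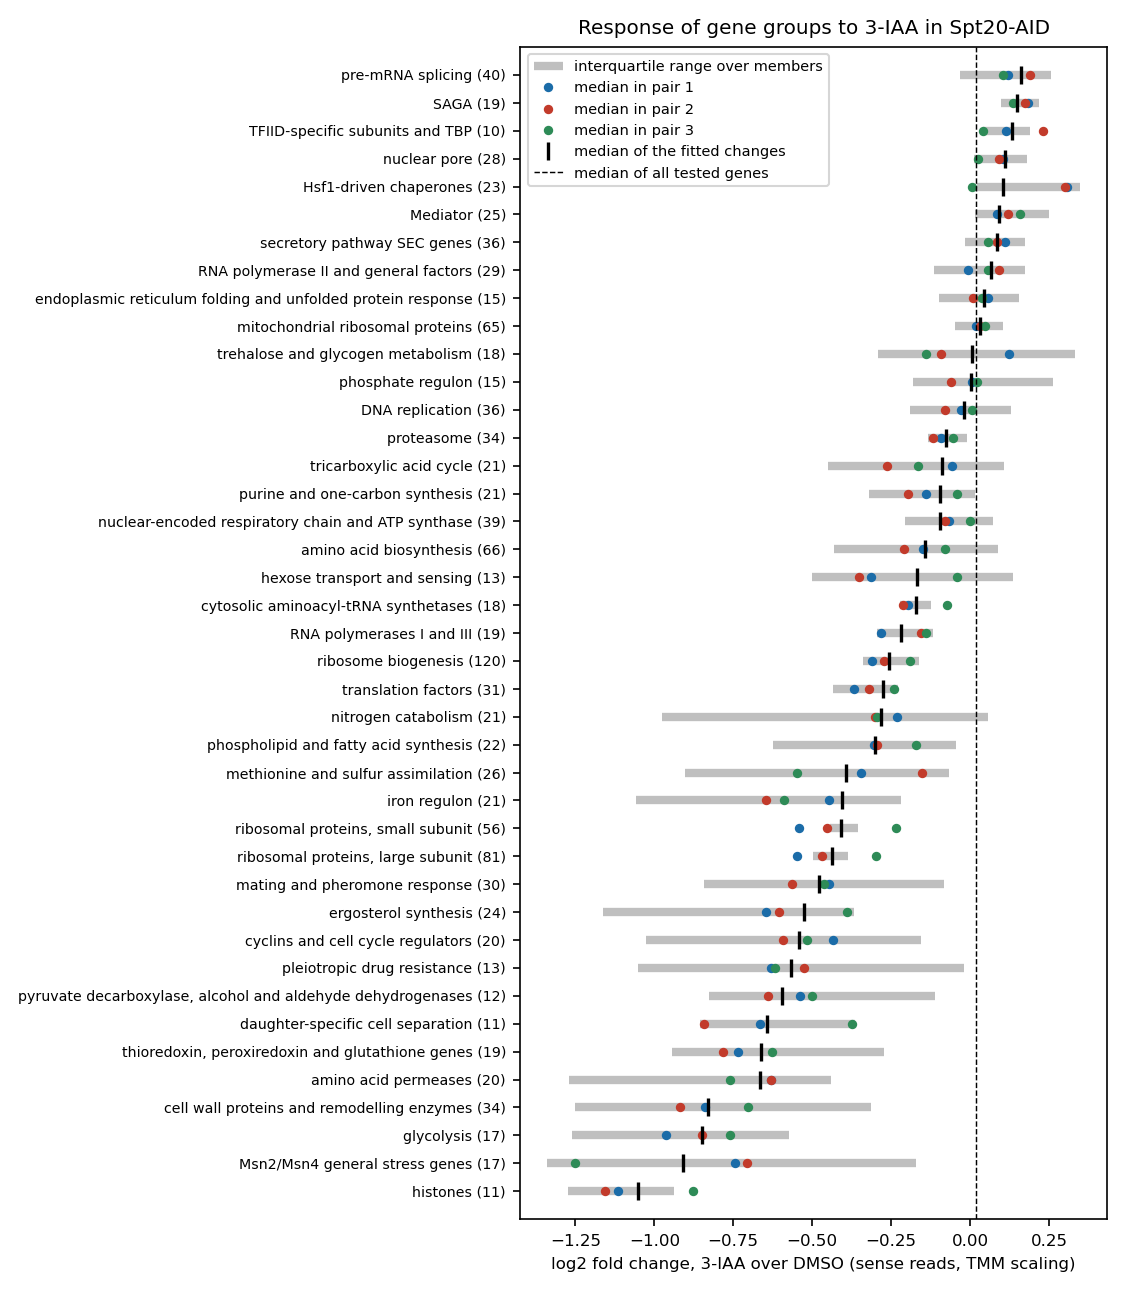
Median log2 fold change of each gene group with 3-IAA in Spt20-AID, relative to the typical gene, with the number of tested genes in brackets. Black ticks are medians of the fitted changes, colored points are medians within replicate pairs 1 to 3, gray bars are interquartile ranges over genes and the dashed line is the median of all tested genes; the groups run from histones at −1.05 to pre-mRNA splicing at 0.16, and spike-in scaling moves all of them up by about 0.37.

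The response also followed general properties of genes. Genes were divided by each property into 5 bins of about equal number. In the bin with the most nsRNA with DMSO (248 to 8815 CPM), 62.1% of genes were lower and the median log2 fold change was −0.27, against 14.96% and 0.077 in the bin with the least. These levels come from the DMSO libraries of the same contrast and are not corrected for length. Within the highest bin the median was −0.41 for genes with a TATA box and −0.19 for genes without one. The median went from −0.10 in the bin with the shortest coding sequences to 0.11 in the longest, and from 0.10 in the bin with the lowest GC content to −0.15 in the highest. Whether length or GC content biased the libraries was not tested. With trends on both removed from each library, the medians of the small and large ribosomal subunit were −0.28 and −0.31, of glycolysis −0.74 and of histones −0.91. Distance from the chromosome end made no such difference, with medians between 0.0091 and 0.036 over the bins.

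Antisense reads from the same libraries were called changed less often than sense reads. They were far fewer, which lowers the power of the test, so the called shares do not compare how often the strands changed. Of 2053 genes with enough antisense reads to test, 267 were lower (13%) and 138 higher (6.72%) on that strand with 3-IAA, and the higher calls numbered 80, 86 and 84 without pair 1, 2 or 3. Among the 382 of them whose sense reads fell, 58 had higher and 44 lower antisense reads, while among the 370 whose sense reads rose, 13 had higher and 29 lower antisense reads. Of the 749 not called on the sense strand, 43 had higher and 70 lower antisense reads, and the remaining genes had no sense test. Antisense reads were also seen at ARO10, where they averaged 18.99 ± 3.78 CPM (SD, n = 3) with DMSO and 24.4 ± 0.529 CPM with 3-IAA, and at PHO84, with 52.8 ± 5.51 and 54.7 ± 5.05 CPM. Neither antisense change was called (edgeR adjusted p = 0.077 and 0.852), although the sense reads of both genes fell. Other named genes with falling sense reads had called antisense changes in either direction. Antisense log2 fold changes were 0.95 at YGP1 and 0.98 at BSC1 (edgeR adjusted p = 5.04e-07 and 2.93e-04). At FAR1 the antisense change was −1.64 (edgeR adjusted p = 8.91e-07).

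The groups were then compared with Med16/Spt20-AID to see which parts of the response are particular to loss of Spt20 alone. By the interaction term of the same edgeR fit, 733 genes responded more negatively in the double degron strain (13.2%) and 720 more positively (12.9%), and without pair 1 the former were 481. With spike-in scaling these counts were 127 and 28. Without the pairing of replicates as a block they were 403 and 456. The strains share no control libraries. The 3 Spt20-AID replicates and the 3 of the other strain were separate cultures.

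Hsf1 chaperone genes differed as a group. Each of the 23 genes of the list responded more negatively in Med16/Spt20-AID, where the median was −0.52 against 0.10 in the single degron strain (−0.23 and 0.47 with spike-in scaling, where 12 of the differences passed the test). SSA4, 1.58 after loss of Spt20 alone, was −0.36 in the double degron strain, a difference of −1.94 ± 0.14 (edgeR adjusted p = 1.17e-12). HSP104 differed by −1.65 ± 0.12 and HSP82 by −1.25 ± 0.11. Of the trehalose and glycogen genes, 13 of 18 differed in the same direction, and of the Msn2/Msn4 genes 9 of 17. With spike-in scaling, 6 of the former and 8 of the latter were called in that direction. YGP1 changed by −1.68 in the single and −3.29 in the double degron strain.

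Ribosomal protein genes differed in the opposite direction. The median was −0.41 and −0.44 for small and large subunits when Spt20 alone carried the degron, and 0.00089 and 0.016 with both degrons, so that 51 of 56 and 78 of 81 genes had a more positive response in the double degron strain. Ribosome biogenesis went the same way with 100 of 120 genes, and the respiratory chain with 23 of 39. On the spike-in scale, 0, 1, 0 and 0 of these differences were called. The subunit medians there were −0.043 and −0.073 after loss of Spt20 alone and 0.29 and 0.31 in the double degron strain. These medians still differed between the strains, although almost none of the differences passed the test. The spike-in factors were uneven over pairs, and why fewer differences passed was not tested. Glycolysis and histones, which fell in Spt20-AID, had medians of −0.87 and −0.89 in the double degron strain (−0.58 and −0.60 with spike-in scaling). Single genes differed, with the glycolytic gene TDH1 at −1.96 and the fermentation gene ADH1 at −0.92 in Med16/Spt20-AID, both less negative than in Spt20-AID (edgeR adjusted p = 2.99e-07 and 5.49e-07).

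**Figure D5:**
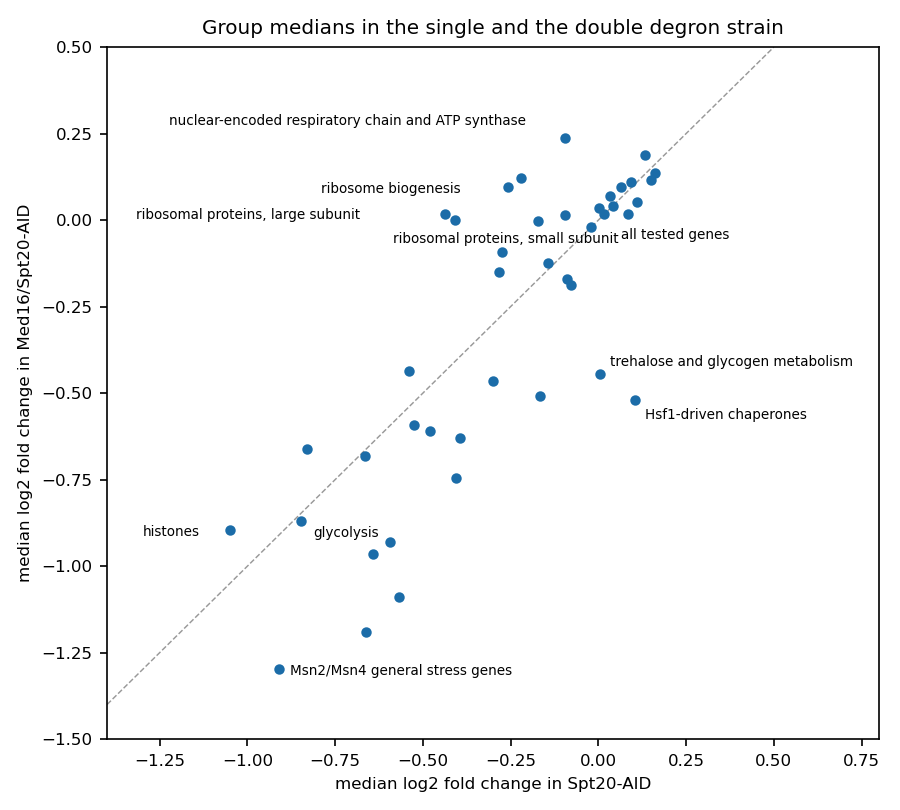
Median log2 fold change of each gene group with 3-IAA in Med16/Spt20-AID against that in Spt20-AID, relative to the typical gene of each strain; points are groups and the dashed line marks equal medians. Hsf1 chaperones (0.10 and −0.52) lie below the line and both ribosomal subunits above it, and the medians carry no test.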

How the data were processed

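The authors deposited, for each of the 18 libraries, read counts per gene made with STAR 2.6.1a on sacCer3, not normalized, for both strands and each strand alone; only uniquely mapped reads are counted on genes, and the sense strand of this stranded kit was used here. Of 6692 genes, the 5567 averaging 10 or more sense reads per library were tested. Counts were fitted with edgeR 4.0.16 (R 4.3.3), TMM factors, a block for replicate number within strain and a 3-IAA effect per strain. They were tested by quasi-likelihood with Benjamini-Hochberg adjustment over all tested genes. The read filter, TMM scaling and fit used all 18 libraries, so SEs and p-values rest on a spread shared by all strains. These include Med16/Taf13-AID, with 874975 to 2366418 sense reads per library. SEs were taken from the fold change and its F statistic (their ratio, with F under a square root). CPM uses the TMM-scaled library, and the log2 values of single pairs add 0.5 CPM. Antisense counts were tested in the same way with the sense library sizes.

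Each culture was split between treatments, and the libraries with one number were taken as pairs. Over 5148 genes, deviations from group means of same-numbered Spt20-AID libraries correlated at 0.401, 0.0684 and 0.275. Spike-in scaling used the study's own factors, obtained by regressing its published mean normalized counts on the sense counts (1950 genes), without the S. pombe reads. Where the study tested with DESeq2 and these factors, this is an alternative, run beside no block, median-of-ratios factors, DESeq2 1.42.0, other count filters, both strands, the 6 libraries alone, removal of length and GC trends, each pair left out and a 1.5-fold threshold.

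The gene groups, genes and motifs were chosen with earlier results of these data known. Named genes are the 12 largest changes each way among called genes with at least 50 reads and one direction in 3 of 3 pairs, up to 4 called members of each group in each direction, and a set of fixed names (SAGA subunits, TDH, SSA, PDC, ADH, HSP and histone genes and common reporters). Groups are described by counts and medians, with no set test. The fit was checked on simulated counts before use. Sequences and positions are from RefSeq R64, the assembly that UCSC calls sacCer3. Python 3.11.15 with pandas 2.3.3 and matplotlib 3.10.9 made summaries and plots.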

Additional observations from a re-analysis of the deposited data

Results flagged for a closer look

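For 78 of the genes named above, the change with 3-IAA was not the same in the single and the double degron strain by edgeR's interaction test (adjusted p under 0.05), and the difference is given here as Med16/Spt20-AID minus Spt20-AID. More negative in the double degron strain, on the log2 scale, were SSA4 −1.94, HSP42 −1.66, HSP104 −1.65, YGP1 −1.62, CTT1 −1.61, HSP78 −1.49, BTN2 −1.49, HSP82 −1.25, ARO10 −1.23, SSA3 −1.02, HXT3 −1.02, EMP46 −0.94, SIP4 −0.90, ACO1 −0.81, SSA1 −0.72, KAR2 −0.69 and ARG1 −0.64. A further set with more negative differences was TPS3 −0.63, YGR067C −0.62, RPN4 −0.62, PDR16 −0.61, CLD1 −0.58, YOR1 −0.57, ATG38 −0.56, PPZ2 −0.55, IDH2 −0.53, CTS1 −0.53, STI1 −0.52, SSA2 −0.52, YPS6 −0.51, RNR1 −0.50, PCL1 −0.46, TRR1 −0.45 and HSP31 −0.45. Smaller negative differences were found for FRE1 −0.43, PDR1 −0.37, PDR3 −0.30, MET3 −0.30, STE11 −0.29, PMA1 −0.29, STE2 −0.28, NUT1 −0.27, GTT2 −0.27, SPT7 −0.26 and GSH1 −0.24. More positive in the double degron strain were PHO84 1.78, BSC1 1.11, GAP1 1.07, CWP1 1.03, TDH1 0.96, MCH5 0.95, HXT4 0.83, CWP2 0.79, ADH1 0.76, ENO1 0.71, GAT1 0.69, RPL4A 0.60, FTR1 0.53, RPS21B 0.52, ARN1 0.51, DIP5 0.51 and DBP3 0.48. A further set with more positive differences was QCR6 0.48, CBF5 0.47, NSR1 0.47, YPL088W 0.47, KSS1 0.45, TDH2 0.44, ILV5 0.42, HHF1 0.40, HHF2 0.40, RPL3 0.39, MFA1 0.37, TAT1 0.35, HTA2 0.34, RPA190 0.34, HHT1 0.33 and SAM1 0.33. These differences are on the TMM scale; no cause was tested.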

How the results depend on the processing

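The main dependence was on the scale, and the spike-in factors of Spt20-AID were uneven over pairs. With spike-in factors 433 genes were lower and 2913 higher, 127 and 28 differences between strains were lower and higher, and 95 and 521 antisense calls. A 1.5-fold threshold left 581 lower and 76 higher genes, and 179 and 104 differences. Without the replicate block (pairing ignored) 1395 genes were lower and 951 higher, and the differences between strains fell to 403 lower and 456 higher. The DESeq2 Wald test gave 392 and 452 differences. Leaving out one pair in turn gave 1289 to 1506 lower and 1000 to 1163 higher genes, 481 to 643 lower and 559 to 833 higher differences, and 206 to 211 lower and 80 to 86 higher antisense calls. Of these, the lower differences moved by over 1.5 times without pair 1 (481), and the higher antisense calls did so without any one of the pairs. Among the named genes, ALD2, ARG1, ERG12, FLO1, GCN5, HTZ1, KAR2, PDR1, PDR3, RPN4, SPT8 and TDH3 lost their call when at least one pair was left out, ERG12, GCN5, HTZ1, KAR2, PDR1, PDR3, RPN4 and SPT8 without the block, and GPH1, PDR3, PHO84 and TDH3 with counts of both strands. Other settings kept the counts of calls within 1.5 times. With spike-in scaling the log2 fold change of 4 of the named genes that were called changed sign, and the values were ACT1 0.10, HTZ1 0.13, PMA1 0.056 and TDH3 0.15. The other changes of sign were PDR1 −0.013 and PDR3 −0.011 with length and GC trends removed. The median of the ribosomal protein genes of the small and large subunit was negative under each alternative but approached 0 with spike-in scaling, and with length and GC trends removed was −0.28 and −0.31. The cause of these dependences was not tested. Genes with few reads and paralogs with mostly shared sequence limit precision, and the samples of one group may share technical error.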
